A study of Mus musculus with 6 samples.

Results

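The genes described here are 47 targets and regulators of the tumour suppressor p53, taken by symbol from a list and divided by function into p53 feedback, arrest and growth, DNA repair, metabolism and redox, and cell death, with an immune group of 3 genes that belonged to none of these. Of the 47 symbols, 46 were listed among the 16894 genes of the deposited expression table, and Tap2b was not. Expression had been measured by RNA-seq in primary mouse fibroadipogenic progenitors (FAPs), the mesenchymal progenitors of skeletal muscle, in 3 control and 3 senescent cultures. The cells came from hindlimb muscles of young C57BL/6 mice. Use of males and females was approved for cell isolation, and the sex of the animals behind each culture is not given. The cells were sorted for SCA-1 and against CD45, CD31 and α7-integrin, and both groups were grown in serum with basic FGF at low oxygen. Senescent FAPs had been exposed to etoposide, a topoisomerase II poison, at 20 μM for 48 h and were collected after another 5 days without it, while control FAPs were non-senescent cells for which the labels give no vehicle. Nothing states which animals each culture came from, so the spread between the libraries of a group may be technical. In bulk RNA, fewer cells of a kind and less RNA in each cell cannot be told apart.

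p53 is a transcription factor that is held at a low level by MDM2, the ubiquitin ligase that marks it for degradation and that is itself encoded by a p53 target gene. Breaks in DNA, such as those left by etoposide and topoisomerase II, activate kinases that free p53 from MDM2, mainly at the level of the protein. Its targets stop the cell cycle, limit growth signalling, assist repair, adjust metabolism, and can start apoptosis, and a lasting p53 response is one of the routes by which damaged cells become senescent.

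Values are CPM, read counts scaled by edgeR to a common library size, with 41412179 to 59912520 reads on genes per library. Each gene was tested with limma on log2(CPM + 0.5) and was called higher or lower in senescent FAPs at a Benjamini-Hochberg adjusted p under 0.05 over all 14776 genes tested. All 46 members passed the filter on low values (at least 0.5 CPM in at least 3 libraries), but the cell death gene Perp and the growth factor gene Tgfa needed the senescent libraries to do so. The proliferation markers show the state of the cultures, since all 10 were lower in senescent FAPs, with a median log2 fold change of −3.11. Their sum was 1134 CPM in control replicate 2, the highest of the control libraries, against 483 CPM in the lowest control library and 61.5 to 96.9 CPM in senescent FAPs. The 6 FAP markers were detected in every library but went both ways, with 3 called higher, 1 lower and 2 not called. Of all genes tested, 21.8% were called higher and 24.3% lower. Pdgfra had 126 to 254 CPM and did not pass the test, and Ly6a, the gene of SCA-1, had 220 to 456 CPM in control and 538 to 678 CPM in senescent FAPs and was called higher. The matrix genes Dcn and Lum were higher and Col1a1 lower, with log2 fold changes of 1.79, 1.98 and −2.29 (limma adjusted p = 0.00465, 0.00117 and 0.00150), and Lum had only 0.179 to 0.951 CPM in control FAPs. Of the genes of the surface markers sorted against, Ptprc (CD45) was not listed. Pecam1 (CD31) and Itga7 (α7-integrin) were called higher, with log2 fold changes of 0.89 and 0.83 (limma adjusted p = 0.00897 and 0.00771). Pecam1 had only 0.467 to 1.03 CPM in control and 1.59 to 1.87 CPM in senescent FAPs. Other markers of these cell types did not follow. Kdr, endothelial like Pecam1, was called lower (log2 fold change −0.74, limma adjusted p = 0.00989). Endothelial Tek and myogenic Des did not pass the test, and Pax7, Myod1, Myf5 and Myog were not listed. Lum and Pecam1 passed the filter only with the senescent libraries.

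Most of the p53 targets were higher in senescent FAPs. Of the 46 members, 27 were called higher and 6 lower, and 13 did not pass the test. The 27 include Perp and Tgfa, which passed the filter on low values only with the senescent libraries. Perp is also among the members past a log2 fold change of 1. Over all genes tested 21.8% were called higher and 24.3% lower, against 58.7% and 13% of the members. The libraries of the groups did not overlap for 28 higher and 6 lower members, where 26.5% and 30.9% of all genes stood apart in these directions. The median log2 fold change was 0.48 over the members and −0.03 over all genes. At the study's threshold for activated and repressed genes, a log2 fold change beyond 1 with an unadjusted p under 0.01, 13 members were higher and 0 were lower (limma; of these 46, 6 were lower at an adjusted p under 0.05), where 6.93% of all genes were higher and 3.90% lower. The count of lower members was the less stable. It was 2 without control replicate 1 or senescent replicate 2 and 3 without senescent replicate 1 or 3, and with division by library totals alone, without edgeR's scaling factors, 32 members were higher and 2 lower. That scaling moves the median of all genes from −0.03 to 0.17.

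**Figure D1:**
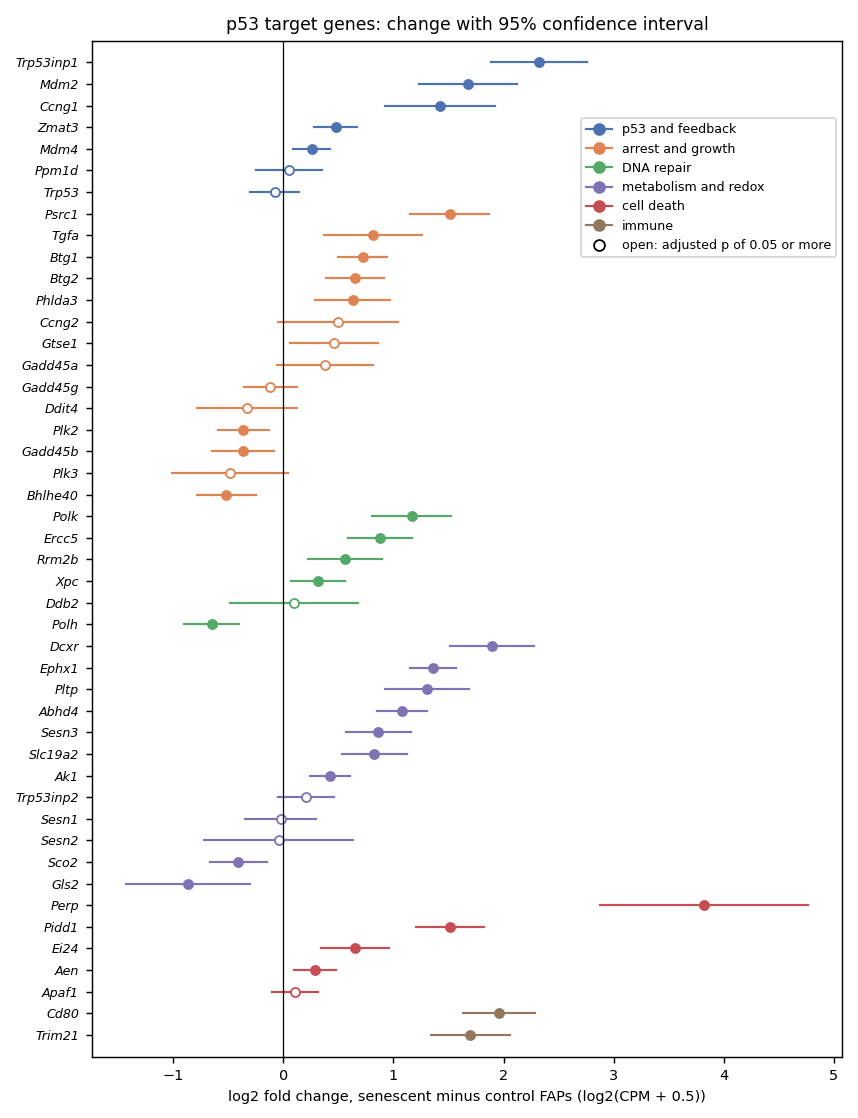
Log2 fold change of each of the 46 members between senescent and control FAPs (x axis, on the log2(CPM + 0.5) scale) with its 95% confidence interval from limma, ordered within functional groups by colour. Filled points have an adjusted p under 0.05, and the 13 members more than 1 log2 unit higher include at least 1 of every group.

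The p53 gene itself, Trp53 (chromosome 11, 69580359 to 69591873, GRCm38), had 81.9, 68.6 and 72.5 CPM in control replicates 1, 2 and 3 and 76.9, 67.0 and 66.8 CPM in senescent replicates 1, 2 and 3. The groups overlapped, and the log2 fold change of −0.08 (95% confidence interval −0.30 to 0.14, limma adjusted p = 0.513) changed sign, to 0.13, when library totals alone were used. The message of p53 was therefore not detectably different, while 5 of the 6 other genes of the feedback group were called higher. Of all genes tested, 21.8% were called higher.

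Mdm2 (chromosome 10, 117688875 to 117710758) had 109, 191 and 156 CPM in the control libraries and 433, 470 and 526 CPM in the senescent libraries. The lowest senescent library exceeded the highest control library by more than the whole range of the controls, with a log2 fold change of 1.68 (standard error 0.19, limma adjusted p = 0.000628). Its relative Mdm4 encodes a protein that binds p53 and blocks its transcriptional activity without being a strong ligase. Mdm4 had 78.8, 74.0 and 83.1 CPM in control and 95.8, 91.9 and 93.9 CPM in senescent FAPs, for a log2 fold change of 0.26 (limma adjusted p = 0.0215), which lost its call without any one of the senescent libraries (adjusted p 0.0589 to 0.0664). Within a library, Mdm2 stood above Mdm4 by 0.46, 1.37 and 0.91 log2 units in control replicates 1, 2 and 3 and by 2.17, 2.35 and 2.48 log2 units in senescent FAPs. These ratios do not depend on the scaling between libraries and did not overlap.

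The largest change of the group was in Trp53inp1, which encodes a nuclear stress protein that promotes phosphorylation of p53. It had 38.4, 32.1 and 56.0 CPM in control and 191, 203 and 229 CPM in senescent FAPs, a 5.00-fold difference (log2 fold change 2.32, standard error 0.19, limma adjusted p = 0.000231). Ccng1, the gene of cyclin G1, which brings phosphatase 2A to MDM2, had 277, 414 and 383 CPM in control FAPs. Senescent replicates 1, 2 and 3 had 712, 1015 and 1180 CPM, so every senescent library lay above the controls (log2 fold change 1.42, standard error 0.21, limma adjusted p = 0.00179). Per kilobase of exon, Ccng1 was the most abundant member in senescent FAPs, with 276 CPM per kb, ahead of the epoxide hydrolase gene Ephx1 at 233. Zmat3, an RNA-binding zinc finger gene, rose by a smaller amount, with a log2 fold change of 0.47 (limma adjusted p = 0.00331). Ppm1d, the gene of the phosphatase WIP1 that removes phosphates from p53 and its kinases, had 8.59 to 10.9 CPM in control and 9.44 to 10.4 CPM in senescent FAPs. Thus Ppm1d, which like Mdm2 restrains p53, showed a log2 fold change of 0.05 (95% confidence interval −0.25 to 0.35, limma adjusted p = 0.758) and did not pass the test.

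The starts of these genes were searched for the consensus half-site of p53, a motif of 10 bases with C as the fourth and G as the seventh base that binds p53 best as an adjacent pair. RefSeq promoter windows on GRCm38.p6, of 250 bases before and 50 after a transcript start, were given for 38 of the 46 members. A perfect half-site lay in a window of 11 of the 38, or 28.9%, and in 9.55% of the 27025 genes with a window. The motif reads alike on both strands. By call, 6 of the 22 higher members, 0 of 4 lower members and 5 of 12 members that did not pass the test had one, the last being Trp53, Ppm1d, Gadd45a, Sesn1 and Gtse1. A pair of half-sites, up to 13 bases apart and with at most 1 mismatch in 20, was found in 2 members, Ccng1 and Gtse1, and in 0.718% of all these genes. Gtse1 held 2 such pairs that overlap, at chr15:85859945-85859964 and chr15:85859955-85859975. The pair of Ccng1 starts 195 bases before the transcript start. It is shown in capitals in 120 bases of the promoter on the minus strand (chr11:40755417-40755536). Next come the first of the pairs at the second start of Gtse1 (chr15:85859940-85859969, plus strand) and the half-sites, in capitals, of the other 5 members called higher.
Ccng1: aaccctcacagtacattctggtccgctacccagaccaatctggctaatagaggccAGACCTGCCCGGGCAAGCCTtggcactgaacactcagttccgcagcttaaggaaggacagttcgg
Gtse1: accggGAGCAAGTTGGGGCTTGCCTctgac
Mdm2: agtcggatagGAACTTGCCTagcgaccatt
Ei24: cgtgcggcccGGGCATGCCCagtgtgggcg
Aen: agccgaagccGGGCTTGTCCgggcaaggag
Polk: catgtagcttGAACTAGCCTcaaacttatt
Abhd4: cgacccggcaGGGCTTGTTTactatggctg
The windows lie at chr10:117710925-117710954 for Mdm2, chr9:36797325-36797354 for Ei24, chr7:78895927-78895956 for Aen, chr13:96519399-96519428 for Polk and chr14:54259274-54259303 for Abhd4. The half-site of Mdm2 is 186 bases before its start, and that of Ei24 10 bases before. Those of Polk and Abhd4 belong to a second start inside the gene. A match of letters in these short windows is a description and says nothing about binding in FAPs, and sites farther away, in introns for instance, were not searched.

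**Figure D2:**
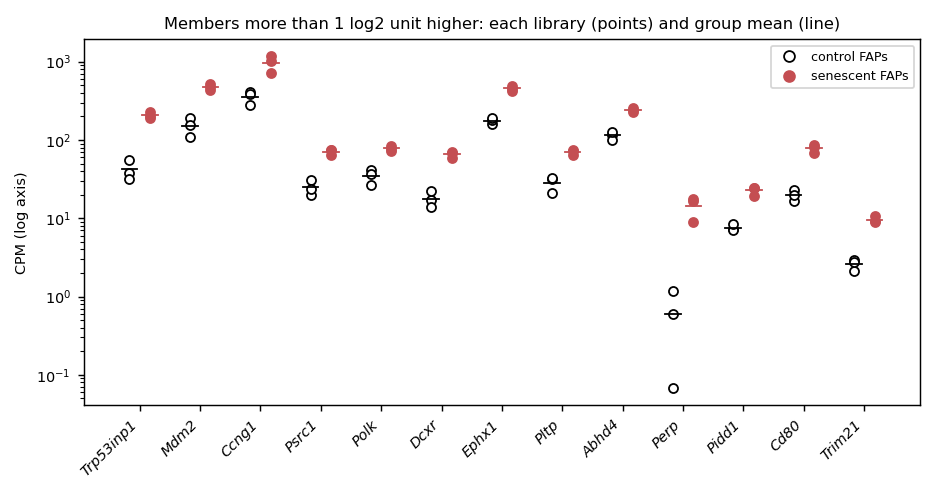
CPM (log axis) of the 13 members more than 1 log2 unit higher, with control libraries as open and senescent libraries as red points and a line at each group mean. The groups are fully apart for all 13, and Perp has the widest spread, from 0.0670 to 1.16 CPM in control FAPs.

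Of the 14 arrest and growth genes, 5 were called higher (35.7%, against 21.8% of all genes tested), 3 lower (21.4%, against 24.3%) and 6 did not pass the test. The 5 include Tgfa, which passed the filter on low values only with the senescent libraries. Psrc1, which encodes a microtubule-binding protein of the mitotic spindle, rose the most, from 20.0, 30.8 and 23.6 CPM in the control libraries to 74.9, 73.7 and 63.7 CPM in the senescent libraries (log2 fold change 1.51, standard error 0.15, limma adjusted p = 0.000415). Gtse1 encodes another microtubule-associated protein, expressed in G2, that carries p53 out of the nucleus. It had 30.1 and 30.5 CPM in control replicates 1 and 3, but 48.1 CPM in control replicate 2, within the 47.6 to 50.3 CPM of senescent FAPs. The log2 fold change was 0.46 (limma adjusted p = 0.0611), 0.0364 with the replicate number as a block. Without control replicate 2 it was 0.68 (limma adjusted p = 0.000444). Neither Psrc1 nor Gtse1 was called lower in senescent cultures in which the listed proliferation markers were lower by 2.38 to 3.84 log2 units.

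The antiproliferative genes Btg1 and Btg2, whose products recruit the CCR4-NOT deadenylase, were both higher. Btg2 had 107, 117 and 142 CPM in control and 179, 203 and 191 CPM in senescent FAPs, and Btg1 had 55.3, 46.8 and 56.9 CPM against 87.1, 82.1 and 92.9 CPM. Their log2 fold changes were 0.65 and 0.72 (limma adjusted p = 0.00307 and 0.00109), and the log2 ratio of Btg2 to Btg1 overlapped between the groups (1.19 ± 0.210 in control and 1.12 ± 0.154 in senescent FAPs, SD, n = 3). Phlda3, a repressor of AKT, rose by 0.63 (limma adjusted p = 0.0108). Tgfa, a ligand of the EGF receptor, had 16 to 41 reads in each control library and 56 to 65 in each senescent library, and its log2 fold change of 0.81 depended on the pseudocount, from 0.58 to 1.22.

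The members of this group called lower were the kinase gene Plk2, the stress sensor gene Gadd45b and Bhlhe40, which encodes a transcriptional repressor. Bhlhe40 had 259, 248 and 202 CPM in control and 148, 177 and 168 CPM in senescent FAPs (log2 fold change −0.52, standard error 0.11, limma adjusted p = 0.00858). Plk2 had 301, 298.5 and 245 CPM in control and 205, 226 and 222 CPM in senescent FAPs (log2 fold change −0.37, limma adjusted p = 0.0197), so its groups did not overlap either. For Gadd45b the libraries had 73.4, 59.6 and 79.8 CPM in control and 56.3, 58.0 and 49.1 CPM in senescent FAPs, for a log2 fold change of −0.37 (limma adjusted p = 0.0390), and control replicate 2 stood less than 2 CPM above the nearest senescent library. Each of these 3 calls was lost with library totals alone (limma adjusted p = 0.243 for Plk2, 0.303 for Gadd45b and 0.0619 for Bhlhe40). Plk2 also lost its call without control replicate 1 or any 1 senescent library (adjusted p 0.0532 to 0.0608), and Gadd45b without any 1 library other than control replicate 2 (0.0688 to 0.135).

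Of the Gadd45 family only Gadd45b passed the test. Gadd45a had 12.8, 8.23 and 9.89 CPM in control and 10.9, 14.2 and 15.2 CPM in senescent FAPs, for a log2 fold change of 0.38 that did not pass the test (limma adjusted p = 0.139). Gadd45g had 97.4 to 102 CPM in control and 79.7 to 105 CPM in senescent FAPs (log2 fold change −0.12, limma adjusted p = 0.376, and 0.09 with library totals alone). Within a library, the log2 ratio of Gadd45a to Gadd45b was −2.74 ± 0.239 in control and −1.99 ± 0.330 in senescent FAPs (SD, n = 3), and its groups did not overlap, while those of Gadd45g to Gadd45b did. The exons of Gadd45a overlap those of E230016M11Rik on the other strand over 19.1% of their length. That gene had under 2 CPM in every library, and the sources used here do not give whether counting used the strand.

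For the polo-like kinases, Plk3 had 26.9, 46.3 and 24.6 CPM in control and 19.8, 24.8 and 22.4 CPM in senescent FAPs, and its log2 fold change of −0.49 did not pass the test (limma adjusted p = 0.115, 0.0279 with the replicate block). The log2 ratio of Plk2 to Plk3 overlapped between the groups. Ccng2, the gene of cyclin G2, had 35.4, 18.3 and 34.8 CPM in control and 37.8, 42.4 and 40.2 CPM in senescent FAPs. The groups did not overlap, but the log2 fold change of 0.50 did not pass (limma adjusted p = 0.121). Ddit4, which encodes the mTORC1 inhibitor REDD1, had 129, 70.8 and 109 CPM in control and 78.8, 81.9 and 77.0 CPM in senescent FAPs (log2 fold change −0.33, limma adjusted p = 0.200). In Ccng2 and Ddit4 control replicate 2 was the lowest control library and in Plk3 the highest, and it was the library in which the proliferation markers were highest. Their relation was not tested. Without it, Ddit4 was called lower (log2 fold change −0.58, limma adjusted p = 0.00164).

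**Figure D3:**
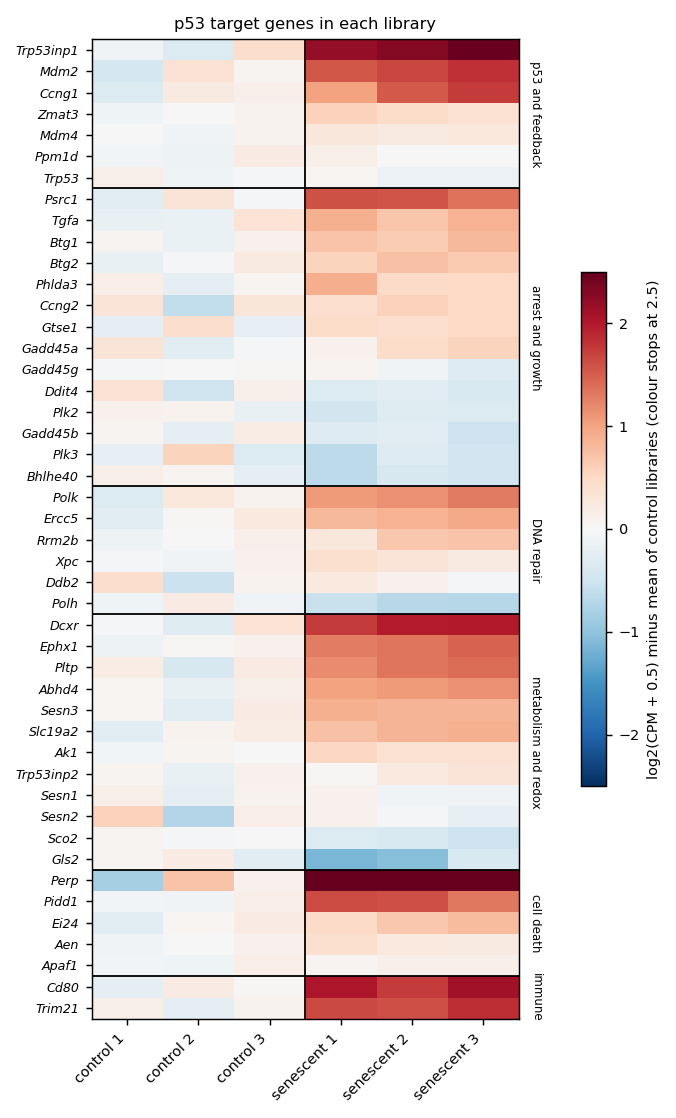
Each member (rows, by functional group) in each library (columns), as log2(CPM + 0.5) minus the mean of the control libraries of that gene, in colour from −2.5 (blue) to 2.5 (red). The 3 senescent libraries are alike for most rows, and control replicate 2 departs from the other controls in Sesn2, Plk3, Ccng2 and Ddit4.

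In the repair group, 4 of 6 genes were called higher (66.7%, against 21.8% of all genes tested) and 1 lower (16.7%, against 24.3%). The change ran in opposite directions in the translesion polymerases, which copy past damaged bases. Polk, the gene of polymerase κ, had 26.9, 41.5 and 36.5 CPM in control and 72.5, 76.6 and 84.9 CPM in senescent FAPs (log2 fold change 1.17, standard error 0.15, limma adjusted p = 0.00108). Polh, the gene of polymerase η, had 31.4, 38.8 and 31.5 CPM in control and 22.7, 20.7 and 20.5 CPM in senescent FAPs (log2 fold change −0.65, standard error 0.11, limma adjusted p = 0.00264), a fall that kept its call under all 15 alternative settings. The genes were thus near the same CPM in control FAPs, with a log2 ratio of Polk to Polh of 0.03 ± 0.224, and 1.85 ± 0.184 log2 units apart in senescent FAPs (SD, n = 3). In length-corrected levels, Polk went from 6.29 to 14 and Polh from 5.70 to 3.58 CPM per kb.

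Nucleotide excision repair was represented by 3 members. Ercc5, the endonuclease XPG, had 25.2, 30.7 and 35.7 CPM in control and 53.8, 55.3 and 59.1 CPM in senescent FAPs (log2 fold change 0.88, standard error 0.13, limma adjusted p = 0.00149). The damage sensor genes showed less. Xpc had 11.6 to 13.2 CPM in control and 14.3 to 16.4 CPM in senescent FAPs, and its call (log2 fold change 0.31, limma adjusted p = 0.0446) was lost without any 1 library (0.0611 to 0.130) and with the replicate block (0.0591). Ddb2 had 1.65 to 3.73 CPM in control and 2.5 to 3.18 CPM in senescent FAPs and did not pass (log2 fold change 0.10, 95% confidence interval −0.48 to 0.68, limma adjusted p = 0.771). Its exons share 23.8% of their length with Acp2, at 69.3 to 104 CPM, on the other strand. Rrm2b, the p53-inducible subunit of ribonucleotide reductase, had 9.82, 10.8 and 11.9 CPM in control and 13.3, 17.5 and 18.0 CPM in senescent FAPs (log2 fold change 0.56, limma adjusted p = 0.0168), with 0.0743 without senescent replicate 2 and 0.0690 without senescent replicate 3.

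The metabolism and redox group held 7 higher (58.3%) and 2 lower (16.7%) genes of 12, with a median log2 fold change of 0.62. Of all genes tested, 21.8% were called higher and 24.3% lower, so the share of lower genes was no larger here. Ephx1, the microsomal epoxide hydrolase, had the smallest p of all members. It had 162, 180 and 189 CPM in control and 427, 448 and 489 CPM in senescent FAPs (log2 fold change 1.36, standard error 0.09, limma adjusted p = 0.000131). Dcxr, which reduces sugars and dicarbonyl compounds, had 17, 13.9 and 22.2 CPM in control and 59.6, 69.0 and 70.3 CPM in senescent FAPs, a 3.73-fold difference (log2 fold change 1.90, standard error 0.16, limma adjusted p = 0.000263). Both genes of lipid handling in the group were more than 1 log2 unit higher. Pltp, a phospholipid transfer protein, had 32.2, 21.3 and 32.3 CPM in control and 64.1, 71.8 and 74.7 CPM in senescent FAPs (log2 fold change 1.30, limma adjusted p = 0.000866). Abhd4, a lipase for N-acyl phospholipids, had 117, 99.8 and 126 CPM in control and 230.3, 239 and 253 CPM in senescent FAPs (log2 fold change 1.08, limma adjusted p = 0.000307). The 3′ exons of Pltp overlap Ctsa on the other strand over 19.3% of their length, and Ctsa did not pass the test (log2 fold change 0.14, limma adjusted p = 0.225). Slc19a2, a thiamine transporter, and Ak1, an adenylate kinase, rose by 0.83 and 0.42 (limma adjusted p = 0.00195 and 0.00439).

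The sestrins, which restrain mTORC1 and act against oxidants, were represented by 3 genes. Sesn3 had 15.0, 11.9 and 16.6 CPM in control and 26.8, 26.4 and 26.3 CPM in senescent FAPs (log2 fold change 0.86, standard error 0.13, limma adjusted p = 0.00167). Sesn1 had 9.60 to 12.7 CPM in control and 10.6 to 12.3 CPM in senescent FAPs, with a log2 fold change of −0.02 (95% confidence interval −0.35 to 0.30, limma adjusted p = 0.903). Sesn2 had 94.3, 38.1 and 70.9 CPM in control and 68.7, 62.2 and 54.8 CPM in senescent FAPs, with a log2 fold change of −0.04 (95% confidence interval −0.72 to 0.63, limma adjusted p = 0.918). The sign of both depended on the setting, and without control replicate 2 Sesn2 was called lower (−0.41, limma adjusted p = 0.0428). The log2 ratio of Sesn3 to Sesn2 was −2.11 ± 0.491 in control and −1.20 ± 0.148 in senescent FAPs (SD, n = 3), without overlap. Trp53inp2, which acts in autophagy, had 126 to 155 CPM in control and 147 to 181 CPM in senescent FAPs (log2 fold change 0.20, limma adjusted p = 0.164), unlike its relative Trp53inp1. The log2 ratio of Trp53inp1 to Trp53inp2 went from −1.80 ± 0.292 to 0.32 ± 0.0582 (SD, n = 3), the widest change among the 10 ratios of related members computed.

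The lower genes of this group both act in mitochondria. Gls2, a glutaminase, had 2.21, 2.51 and 1.65 CPM in control and 0.675, 0.736 and 1.49 CPM in senescent FAPs, or 92 to 132 against 34 to 66 reads (log2 fold change −0.87, standard error 0.24, limma adjusted p = 0.0222). The call was lost without control replicate 1 or senescent replicate 1 or 2 (adjusted p 0.0565 to 0.0885). Sco2, an assembly factor of cytochrome c oxidase, had 11.9, 11.0 and 11.2 CPM in control and 8.90, 8.65 and 7.81 CPM in senescent FAPs (log2 fold change −0.41, limma adjusted p = 0.0197). The call was lost without control replicate 1 or 3 or senescent replicate 2 or 3 (0.0573 to 0.0666) and with library totals alone (0.158). The exons of Sco2 are shared over 68.3% of their length with Tymp on the same strand and over 66.2% with Ncaph2 on the other strand. Those genes had log2 fold changes of −0.41 and −0.50 (limma adjusted p = 0.0325 and 0.00591), so reads of the 3 genes may not have been told apart.

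**Figure D4:**
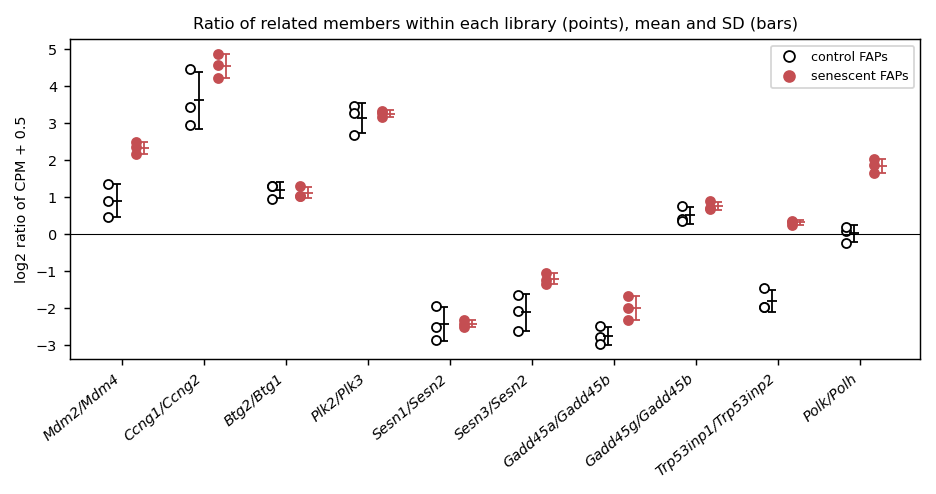
Log2 ratio of 10 pairs of related members within each library (y axis, from CPM + 0.5), with control libraries open, senescent libraries red and bars for mean and SD (n = 3). The groups are apart for Mdm2/Mdm4, Sesn3/Sesn2, Gadd45a/Gadd45b, Trp53inp1/Trp53inp2 and Polk/Polh and overlap for the other 5.

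Of the 10 ratios, those 5 had an exact permutation p of 0.1 (two-sided), the smallest that 3 libraries against 3 allow, and 0.2 after Benjamini-Hochberg adjustment over the 10 pairs. This test therefore cannot pass a threshold of 0.05 for any ratio. Groups that do not overlap were common in these libraries, with 26.5% of all single genes apart in the higher and 30.9% in the lower direction. The ratio of Ccng1 to Ccng2 was 2.95, 4.46 and 3.44 log2 units in control and 4.22, 4.57 and 4.86 in senescent FAPs, with control replicate 2 above senescent replicate 1 (exact permutation p = 0.2, without pairing). Between cultures of the same number it was higher in the senescent library in all 3 pairs.

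In the cell death group, 4 of 5 genes were called higher (80%, against 21.8% of all genes tested). The 4 include Perp, which passed the filter on low values only with the senescent libraries. Perp encodes a tetraspan membrane protein of desmosomes that is also an apoptosis effector of p53, and showed the largest change of any member. It had 0.0670, 1.16 and 0.592 CPM in control FAPs, from 3, 61 and 33 reads, and 9.03, 16.5 and 17.4 CPM in senescent FAPs, from 455, 985 and 775 reads. The log2 fold change was 3.82 (standard error 0.41, limma adjusted p = 0.000481), and with so few control reads it varied with the pseudocount, from 3.26 to 4.72. Even so, Perp remained at 7.33 CPM per kb in senescent FAPs, where Mdm2 stood at 93.7 CPM per kb. Pidd1, the scaffold of the complex that activates caspase-2, had 7.21, 7.05 and 8.51 CPM in control and 24.4, 24.0 and 19.5 CPM in senescent FAPs (log2 fold change 1.51, standard error 0.13, limma adjusted p = 0.000269).

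The other death genes changed less. Ei24, a membrane protein of the endoplasmic reticulum, had 66.0, 81.3 and 91.4 CPM in control and 110.0, 126 and 137 CPM in senescent FAPs (log2 fold change 0.65, limma adjusted p = 0.00644). Aen, an apoptosis-enhancing nuclease, had 78.6, 83.6 and 90 CPM in control and 110.3, 99.8 and 98.0 CPM in senescent FAPs, for a log2 fold change of 0.29 (limma adjusted p = 0.0237) that lost its call without control replicate 1 or senescent replicate 1 or 2 (0.0663 to 0.0705). Apaf1, the core of the apoptosome, had 62.4 to 76.3 CPM in control and 71.0 to 73.8 CPM in senescent FAPs and did not pass (log2 fold change 0.11, 95% confidence interval −0.10 to 0.32, limma adjusted p = 0.352).

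Both immune members in the table were higher. Cd80, a ligand that costimulates T cells, had 16.6, 22.9 and 20.1 CPM in control and 81.4, 67.5 and 86.3 CPM in senescent FAPs (log2 fold change 1.96, standard error 0.14, limma adjusted p = 0.000158). Trim21, a cytosolic antibody receptor and ubiquitin ligase, had 2.95, 2.15 and 2.80 CPM in control and 9.21, 9.03 and 10.6 CPM in senescent FAPs (log2 fold change 1.70, standard error 0.15, limma adjusted p = 0.000307). Leukocytes express both genes. Of 6 leukocyte markers, 4 were in the table and 3 of these were called higher (75%, against 21.8% of all genes tested). Ptprc, the gene of CD45, and Adgre1 were not listed. The summed level of the 4 was 9.71 to 12 CPM in control and 22.3 to 28.0 CPM in senescent FAPs. Cd53 had 0.960, 3.92 and 1.08 CPM in control and 8.36, 12 and 13.7 CPM in senescent FAPs. Its log2 fold change was 2.42 (standard error 0.42, limma adjusted p = 0.00311). The confidence interval of Cd53, from 1.45 to 3.40, contained the log2 fold changes of Cd80 and Trim21. Lyz2 rose by 1.53, while Csf1r, at 6.24 to 8.10 CPM in all libraries, did not pass the test. Itgam, at 0 in 2 control libraries, had 0.516 to 0.837 CPM in senescent FAPs and passed the filter on low values only through them. The exons of Itgam are shared over 68.7% of their length with Gm49368 on the same strand, a gene that was not listed. The part of leukocytes in the rise of Cd80 and Trim21 was not tested.

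**Figure D5:**
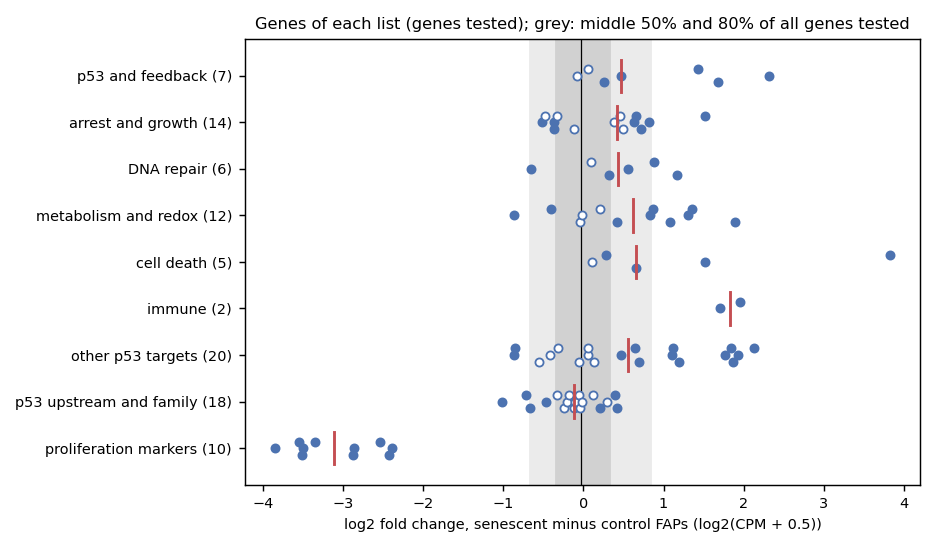
Log2 fold change (x axis) of each gene tested in the 6 functional groups and in 3 further lists, with filled points for an adjusted p under 0.05 and a red bar at the median of the list. Grey bands hold the middle 50% and 80% of all genes tested, from −0.35 to 0.34 and from −0.66 to 0.84, and all proliferation markers lie to their left.

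Other genes of the pathway were read beside the members. Of 20 further p53 targets tested, 11 were called higher (55%) and 2 lower (10%), with a median log2 fold change of 0.56. Among the 11 is Trp53cor1, with 0.475 to 0.513 CPM in control FAPs, which passed the filter on low values only with the senescent libraries. Like the members, this list was chosen with earlier results of these data known, so it is no independent check. Cdkn1a, which encodes the cell cycle inhibitor p21, had 259, 274 and 336 CPM in control and 1037, 1017 and 1060 CPM in senescent FAPs (log2 fold change 1.85, limma adjusted p = 0.000101). The death receptor gene Fas had 6.58, 7.26 and 11.5 CPM in control and 31.4, 31.3 and 35.3 CPM in senescent FAPs, and Trp53i11 had 2.81, 2.05 and 3.21 CPM against 11.0, 10.5 and 9.14 CPM. Their log2 fold changes were 1.92 and 1.76 (limma adjusted p = 0.000408 and 0.000377). Of 18 kinases, cofactors and relatives of p53 tested, 3 were called higher (16.7%) and 4 lower (22.2%), shares near those of all genes tested (21.8% and 24.3%), with a median of −0.11. The smallest p belonged to Mdc1, an adaptor at DNA breaks, Dyrk2, a p53 kinase, and Chek1, the checkpoint kinase of replication, with log2 fold changes of −0.71, −0.67 and −1.02 (limma adjusted p = 0.000601, 0.00192 and 0.00242). Mdc1 had 49.3, 50.6 and 46.1 CPM in control and 31.1, 27.9 and 29.5 CPM in senescent FAPs. Dyrk2 had 32.1, 29.3 and 31.3 CPM against 20.6, 20.3 and 17 CPM, and Chek1 had 6.00, 7.83 and 6.84 CPM against 3.26, 3.6 and 2.61 CPM.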

How the data were processed

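RNA of 3 control and 3 senescent FAP cultures was sequenced from stranded mRNA libraries. The authors deposited 1 signal value per gene and library, CPM of the effective library size from edgeR 3.10 in R 3.6.0 (submitters' processing notes, genome build mm10), with replicates not pooled. The aligner, counter, annotation and filter are not given in the sources used here. Every value (100%) lay within 0.001 reads of a whole number of reads, so the counts were recovered. The deposited line that names no gene took 0.0041% to 0.0070% of reads and was excluded.

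The plan assumed CPM, and limma 3.58.1 (R 4.3.3) was kept as the main test, two-sided, with a variance trend, on log2(CPM + 0.5), tested on simulated data. Fold changes on this scale understate those of low genes. Same-numbered cultures of the groups deviated together (correlations over genes 0.54, 0.31 and 0.21), though control replicate 2 with senescent replicate 3 had 0.15. The labels do not say whether same-numbered cultures share animals. The main test was therefore unpaired, and the replicate number entered the gene tests only as a block among the alternatives. Replicates differed well beyond sampling noise (chi-square per gene 15.1 to 155).

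Alternatives were pseudocounts of 0.1 and 1, no filter or 2 CPM, median-of-ratios or library-total scaling, leaving out each library, the replicate block, and count tests on the recovered reads with edgeR 4.0.16 and with DESeq2 1.42.0. Per-library values are given for Trp53, Mdm2, the related members, members past a log2 fold change of 1 and the 2 smallest p of each group, of the other pathway lists for the 3 smallest p, and for further members so that each is accounted for. Members and lists were chosen with earlier results of these data known. Positions are from GENCODE M21 (GRCm38) and promoters from RefSeq. Levels per kb use GENCODE exon lengths.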

Additional observations from a re-analysis of the deposited data

How the results depend on the processing

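Over the 15 alternative settings the number of members called higher stayed between 23 and 32 (main value 27), and the number more than 1 log2 unit higher between 12 and 16 (main value 13). The number called lower (main value 6) was 2 with library totals alone and 2 to 8 with a library left out in turn. The number more than 1 log2 unit lower (main value 0) was 1 with a pseudocount of 0.1 and with DESeq2, and 0 to 1 with a library left out. The recovered counts gave 27 higher and 6 lower members with edgeR's quasi-likelihood test and 28 and 6 with DESeq2. With the replicate block, 27 members were higher and 7 lower, and besides the calls of Gtse1, Plk3 and Xpc given above it changed none among the members.

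Signs turned for members near 0. Library totals alone gave 0.13 for Trp53, 0.092 for Gadd45g, 0.18 for Sesn1 and 0.17 for Sesn2, and DESeq2 gave 0.0088 for Sesn1. When each library was omitted, log2 fold changes ranged from −0.0079 to 0.15 for Ppm1d, from −0.17 to 0.32 for Ddb2, from −0.14 to 0.054 for Sesn1 and from −0.41 to 0.24 for Sesn2. The change of ratio ranged from −0.11 to 0.28 for Plk2/Plk3 and from −0.19 to 0.27 for Sesn1/Sesn2, an alternative chosen after seeing the data, against main values of 0.12 and 0.02. The cause was not tested. Depth limits Perp, Tgfa and Gls2 most, with at most 132 reads in any control library.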
